A study of Mus musculus with 64 samples.

Results

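The comparison was between hippocampus and prefrontal cortex in wild-type mice that had received vehicle, and it used 16 of the series' 64 arrays: 8 of hippocampus and 8 of prefrontal cortex, chosen by their titles. These mice were 4 months old, of the B6SJLF1 strain (a cross of C57Bl/6 and SJL), and did not carry the transgene. Each had a subcutaneous minipump that delivered vehicle for 28 days, so the animals were infused controls. The other 48 arrays came from the same 2 regions of vehicle-infused Tg2576 mice, PF-04447943-infused wild-type mice and PF-04447943-infused Tg2576 mice, with 8 arrays in each group. Tg2576 mice overexpress a human mutant amyloid precursor protein, and PF-04447943 inhibits the cyclic GMP phosphodiesterase encoded by Pde9a. Regions were microdissected and frozen, and total RNA of each mouse's region was hybridised to an Affymetrix mouse 430 2.0 array. The design text calls the cortical sample frontal cortex and the sample labels call it prefrontal cortex.

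Both regions are parts of the cerebral cortex. The hippocampus is an old cortex with a single packed layer of principal cells, divided into the granule cells of the dentate gyrus and the pyramidal cells of fields CA3, CA2 and CA1, and it receives its main input through the perforant path. The prefrontal cortex is a layered neocortex, in which upper layers send fibres to other cortical areas and deep layers send them to the thalamus, striatum and brainstem. Excitatory neurons of both use glutamate, and differ in the transcription factors that set their identity, in receptor subunits and in adhesion and guidance molecules. In dissected tissue, fewer cells of a type and less RNA per cell cannot be told apart.

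Levels are given as log2 of the deposited intensity, and differences as hippocampus minus prefrontal cortex on that scale, where 1 unit is a 2-fold difference. Each gene was represented by 1 probe set, and 12950 genes passed the filter on dim signals. Calls are from limma's two-sided test with Benjamini-Hochberg adjustment over those genes, at an adjusted p under 0.05. The fit did not pair the regions of a mouse, and fits with a block are given at the end. Errors on differences are standard errors (SE) of that fit, and genes of the vehicle-infused wild-type comparison given with a difference and no p-value passed the threshold. Median array intensity was 96.1 ± 1.65 in hippocampus and 95.5 ± 3.07 in prefrontal cortex (SD, n = 8 each). The interquartile range of log2 intensity, a measure of signal range, averaged 3.52 ± 0.0806 in hippocampus and 3.59 ± 0.129 in prefrontal cortex (SD, n = 8 each; exact permutation test, two-sided p = 0.214, adjusted p = 0.321 over 3 array measures). The 3' minus 5' signal of actin and Gapdh control probes, a measure of RNA integrity, averaged 0.0925 in hippocampus and 0.153 in prefrontal cortex (exact permutation test, two-sided p = 0.0939, adjusted p = 0.282). Pearson r between arrays over all probe sets was 0.986 to 0.995 within hippocampus and 0.983 to 0.996 within prefrontal cortex, and 0.974 to 0.988 between the regions.

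One cortical array stood apart from the other 7. The number of genes more than 1 log2 unit from the median of the other arrays of the region was 24 to 73 in the hippocampal arrays, the highest being replicates 1 and 5. It was 273 in replicate 5 of prefrontal cortex and 23 to 41 in the other cortical arrays. Markers of striatal neurons averaged 7.77 to 8.00 in the hippocampal arrays. Their mean was 10.67 in cortical replicate 5, against 9.39 in cortical replicate 8, 9.10 in replicate 2, 8.65 in replicate 6, and 8.01 to 8.11 in the other 4. Without cortical replicate 5, 2684 genes were higher and 3098 lower in hippocampus, 179 and 238 of them by at least 2-fold, and 369 of the 387 genes called at 2-fold with all arrays were also called at 2-fold without it. No gene was called in opposite directions with and without this array. Values without it are given beside some of the results that it moved.

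Hippocampus and prefrontal cortex differed in a large share of the transcriptome, mostly by small amounts. Of the 12950 genes tested, 5819 passed the threshold (44.9%): 2735 were higher in hippocampus (21.1%) and 3084 were lower (23.8%). The balance of directions depended on scaling and filter: quantile normalization gave 3303 higher and 2873 lower, the signal range as a covariate 3330 and 2930, and no filter on dim signals 3302 and 3103. Of the genes past the threshold, 93.3% differed by less than 2-fold, and the median size of the difference over all genes tested was 0.17. At least 2-fold differences were called for 387 genes (2.99%), of which 179 were higher in hippocampus (1.38%) and 208 lower (1.61%). At least 4-fold differences were called for 40 genes higher in hippocampus and 28 lower. All 8 hippocampal arrays lay above all 8 cortical arrays for 956 genes (7.38%) and below them for 900 genes (6.95%). The median difference over all genes tested was -0.0036. Counts of called members in the gene lists below are to be read against these shares of all genes. The filter on dim signals took the mean over all arrays, so a member dim in either region could pass through its level in the other. This tilts the count of a list toward the region where its members are high.

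**Figure D1:**
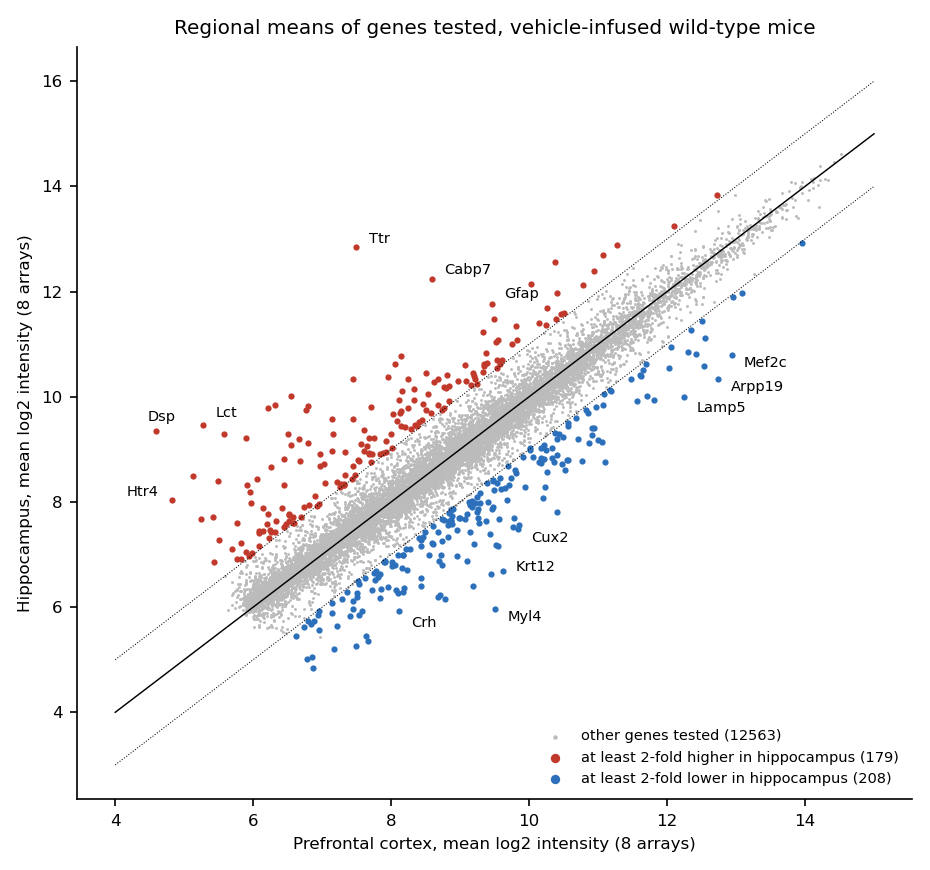
Mean log2 intensity of each of the 12950 genes tested in hippocampus (vertical axis, 8 arrays) against prefrontal cortex (horizontal axis, 8 arrays) of vehicle-infused wild-type mice. The solid line marks equal levels and the dotted lines a 2-fold difference; red points are the 179 genes called at least 2-fold higher in hippocampus and blue points the 208 called at least 2-fold lower, and Ttr and Dsp lie farthest above the line.

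Genes that mark dentate granule cells and pyramidal cells of fields CA1 and CA3 were mostly higher in hippocampus, and Dsp, Lct, C1ql2, Fibcd1, Spink8 and Gpr161 were among the 15 largest differences in that direction that left no overlap between the regions. Among dentate granule cell markers, 9 were higher in hippocampus, 2 were lower and 4 did not pass, of 15 tested, with a median log2 difference of 0.71. Among CA1 markers, 9 were higher in hippocampus, 1 was lower and 2 did not pass, of 12 tested, with a median log2 difference of 1.31. Among CA3 markers, 8 were higher in hippocampus, 1 was lower and 1 did not pass, of 10 tested, with a median log2 difference of 0.73, and among CA2 markers, 3 were higher in hippocampus, 1 was lower and 3 did not pass, of 7 tested, with a median log2 difference of 0.47. The CA2 count includes Sostdc1, which is also a choroid plexus gene, and the mean of the CA2 list was highest in hippocampal replicate 5, at 9.69, the array with the highest choroid plexus mean. These shares higher in hippocampus compare with 21.1% of all genes tested. The filter tilts them toward hippocampus, since members dim in cortex, such as Dsp and Prox1, could pass through their hippocampal levels. The members called lower were Calb1 and Pdzd2 in the dentate list, Tyro3 in the CA1 list and Plagl1 in the CA3 list. The lowest log2 differences of any member in those lists were -0.42, -0.76 and -0.63.

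Dsp, which encodes the desmosomal linker desmoplakin and marks granule cells of the dentate gyrus, had log2 intensities of 8.77 to 9.87 (median 9.38) in hippocampus, against 4.29 to 4.94 (median 4.62) in prefrontal cortex. No hippocampal array came near a cortical one, and the log2 difference was 4.75 ± 0.35 (SE; 26.9-fold, adjusted p = 2.01e-17). The cortical values of Dsp lay below the filter level of 5.93, where a fold is limited by background. That limit holds for every gene whose lower region lay near or below this level. Lct, the gene of the digestive enzyme lactase and another dentate marker, had a lowest, median and highest log2 intensity of 8.65, 9.56 and 10.08 in hippocampus, against 4.11, 5.34 and 6.24 in prefrontal cortex, again without overlap (log2 difference 4.18 ± 0.30 SE, 18.1-fold, adjusted p = 1.09e-17). Prox1, the homeodomain factor that specifies granule cells, had a lowest, median and highest log2 intensity of 7.06, 7.88 and 7.94 in hippocampus, against 4.91, 5.36 and 5.91 in prefrontal cortex. The regions did not overlap, and the log2 difference was 2.30 ± 0.24 (SE; 4.94-fold, adjusted p = 6.57e-12). All cortical values of Prox1 and the cortical median of Lct were also below the filter level of 5.93. C1ql2, a secreted protein of mossy fibre synapses, differed by 3.57 ± 0.21 and its relative C1ql3 by -0.12 ± 0.11 (adjusted p = 0.399), with C1ql3 overlapping between the regions.

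In the CA fields, Fibcd1, a CA1 marker that encodes a membrane receptor with a fibrinogen domain, ranged over 9.54 to 10.14 (median 9.87) in hippocampus, against 5.81 to 6.81 (median 6.34) in prefrontal cortex. Every hippocampal array exceeded every cortical array (log2 difference 3.51 ± 0.22 SE, 11.4-fold, adjusted p = 6.94e-20). Zbtb20, a zinc-finger repressor needed for CA1 identity, had a lowest, median and highest log2 intensity of 10.68, 11.72 and 11.80 in hippocampus, against 9.09, 9.42 and 10.40 in prefrontal cortex, with cortical replicate 5 at 10.40 and the other cortical arrays at 9.09 to 9.56. Its difference was 2.00 ± 0.23 (SE; 4.00-fold, adjusted p = 9.55e-11), and 2.13 ± 0.23 (SE; adjusted p = 1.72e-11) without that array. Spink8 and Gpr161, which also mark CA1, differed by 3.31 and 2.97. Prkcd, a protein kinase C isoform of CA3 that thalamic neurons express as well, had a lowest, median and highest log2 intensity of 8.24, 8.96 and 9.35 in hippocampus, against 6.61, 6.87 and 7.98 in prefrontal cortex (log2 difference 1.95 ± 0.23 SE, 3.85-fold, adjusted p = 2.07e-10), while its second probe set gave 0.23. Nnat, a small membrane proteolipid of CA3, overlapped between the regions through cortical replicate 5, which was at 11.75 (log2 difference 2.12 ± 0.36 SE, 4.34-fold, adjusted p = 2.13e-06; 2.36 without it). Of the CA2 markers, Rgs14, a regulator of G-protein signalling, was higher in hippocampus by 1.10. Pcp4, a calmodulin-binding peptide used as a CA2 marker and also a gene of deep neocortical neurons, was lower in hippocampus, with a log2 difference of -1.11 ± 0.11 (SE; 2.15-fold, adjusted p = 3.87e-12).

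**Figure D2:**
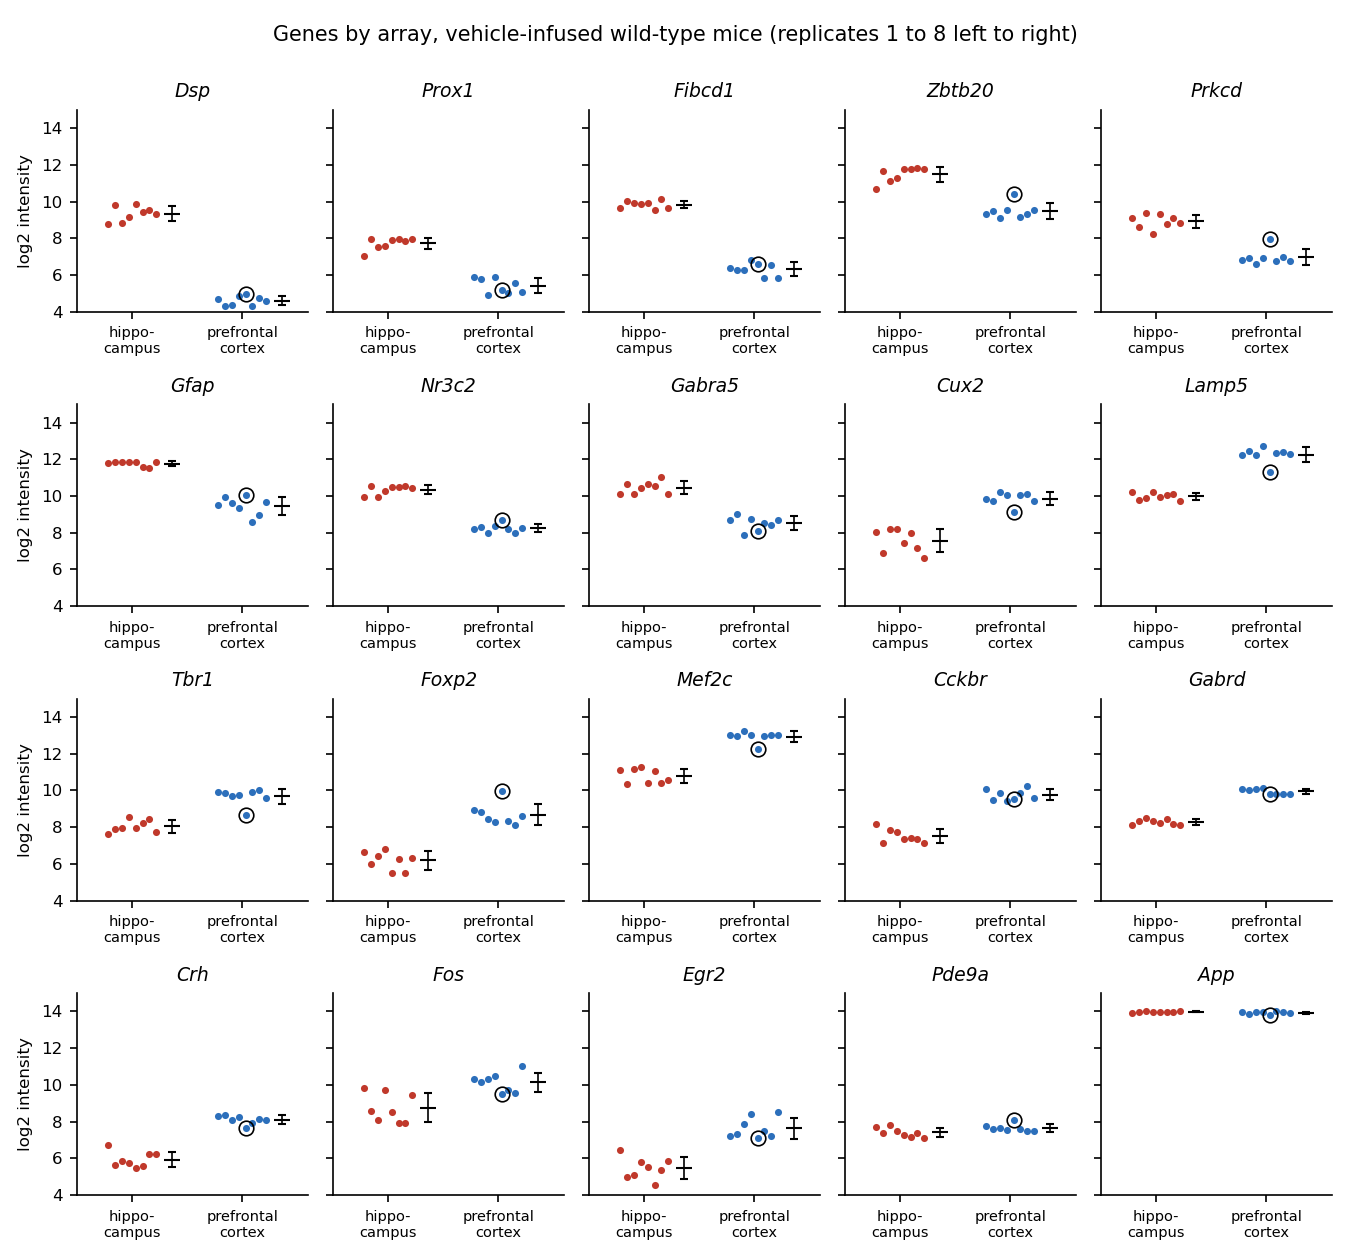
Log2 intensity of 20 genes in each of the 16 arrays of vehicle-infused wild-type mice, hippocampus left and prefrontal cortex right in each panel; bars give the mean ± SD of 8 arrays and a ring marks cortical replicate 5. Dsp, Prox1 and Fibcd1 are separate and higher in hippocampus, Cux2, Lamp5 and Gabrd separate and lower, while Fos, Pde9a and App overlap.

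Genes of neocortical layers were mostly lower in hippocampus in the upper-layer list and went both ways in the deep-layer list. Among upper-layer markers, 2 were higher in hippocampus, 11 were lower and 2 did not pass, of 15 tested, with a median log2 difference of -0.94, and among deep-layer markers, 8 were higher in hippocampus, 11 were lower and 5 did not pass, of 24 tested, with a median log2 difference of -0.36. All genes tested had 23.8% lower in hippocampus. Cux2, the homeodomain factor of layers 2 to 4, had a lowest, median and highest log2 intensity of 6.63, 7.70 and 8.22 in hippocampus, against 9.14, 9.93 and 10.22 in prefrontal cortex. The regions did not overlap (log2 difference -2.29 ± 0.30 SE, 4.88-fold, adjusted p = 3.50e-09), and the 3 probe sets of Cux2 gave -2.29 to -0.26. Lamp5, a membrane protein of upper-layer and neurogliaform cells, had log2 intensities of 9.72 to 10.21 (median 9.99) in hippocampus, against 11.32 to 12.70 (median 12.31) in prefrontal cortex, and the lowest cortical value was that of replicate 5 (log2 difference -2.25 ± 0.17 SE, 4.77-fold, adjusted p = 1.08e-16). Rspo1, a secreted enhancer of Wnt signalling, the nuclear receptor Rorb of layer 4 and the netrin receptor Unc5d were lower, with log2 differences of -2.31, -1.38 and -1.25. Mdga1, an adhesion molecule listed with the upper layers, was higher in hippocampus by 1.16 ± 0.13.

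The deep-layer list split. Tbr1, the T-box factor of layer 6 corticothalamic neurons, had a lowest, median and highest log2 intensity of 7.60, 7.97 and 8.57 in hippocampus, against 8.68, 9.80 and 10.02 in prefrontal cortex. Even cortical replicate 5, at 8.68, was above every hippocampal array (log2 difference -1.63 ± 0.18 SE, 3.10-fold, adjusted p = 3.22e-11). Foxp2, a forkhead factor of layer 6 that striatal neurons also express, had log2 intensities of 5.48 to 6.82 (median 6.30) in hippocampus, against 8.14 to 9.96 (median 8.51) in prefrontal cortex, with the highest cortical value in replicate 5. Its difference was -2.50 ± 0.30 (SE; 5.64-fold, adjusted p = 4.77e-10), and -2.31 ± 0.30 (SE; adjusted p = 3.81e-09) without that array. Bcl11b, the zinc-finger factor of layer 5 subcerebral neurons, which hippocampal and striatal neurons express too, was higher in hippocampus by 1.25 ± 0.21 (SE; 2.38-fold, adjusted p = 1.38e-06). Crym, a thyroid-hormone-binding protein, was higher by 1.53 ± 0.27 (SE; 2.89-fold, adjusted p = 3.19e-06), although cortical replicate 5, at 11.07, nearly reached the lowest hippocampal array, at 11.11.

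Among the factors that pattern the telencephalon and specify its neurons, 12 were higher in hippocampus, 9 were lower and 10 did not pass, of 31 tested, with a median log2 difference of 0.13 (13 higher and 12 lower without cortical replicate 5). Mef2c, a MADS-box factor that refines cortical synapses, had a lowest, median and highest log2 intensity of 10.36, 10.82 and 11.29 in hippocampus, against 12.23, 13.01 and 13.21 in prefrontal cortex and was lower in hippocampus without overlap (log2 difference -2.13 ± 0.21 SE, 4.39-fold, adjusted p = 7.08e-13). Meis2, a homeodomain factor of ventral and striatal lineages as well as cortex, was lower, with a log2 difference of -1.51 ± 0.23. Neurod2, a helix-loop-helix factor of excitatory neurons, had log2 intensities of 10.39 to 10.77 (median 10.65) in hippocampus, against 8.86 to 9.90 (median 9.65) in prefrontal cortex and was higher in hippocampus without overlap (log2 difference 1.05 ± 0.10 SE, 2.07-fold, adjusted p = 1.11e-13). Without cortical replicate 5 its log2 difference was 0.95, under 2-fold. Adult neurogenesis continues in the dentate gyrus, and in that list, 5 were higher in hippocampus, 3 were lower and 4 did not pass, of 12 tested, with a median log2 difference of 0.14. Hopx, a homeodomain protein of adult neural stem cells and of astrocytes, was higher by 1.27 ± 0.30, and Dcx, the microtubule protein of migrating young neurons, was lower in hippocampus, with a log2 difference of -1.12 ± 0.14 (SE; 2.17-fold, adjusted p = 1.45e-09), without overlap.

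Genes of tissues that border the dissections varied between arrays. Among choroid plexus markers, 6 were higher in hippocampus, 0 were lower and 1 did not pass, of 7 tested, with a median log2 difference of 1.32. Of 17 listed, 15 had a probe set and 7 passed the filter on dim signals. That filter took the mean over all arrays, so members dim in cortex could pass through their hippocampal levels. This tilts the count and the median toward hippocampus. In cortex, Kl was at 4.81 to 5.96 and Sostdc1 at 5.02 to 6.15, near or below the filter level of 5.93. The mean level of the plexus list ranged over 7.60 to 11.19 in hippocampus, against 6.25 to 7.64 in cortex. Ttr, which encodes transthyretin, the main secreted protein of choroid plexus, had a lowest, median and highest log2 intensity of 10.13, 13.50 and 15.06 in hippocampus, against 5.55, 7.72 and 9.06 in prefrontal cortex, and gave the largest difference of all genes tested (log2 difference 5.35 ± 0.80 SE, 40.7-fold, adjusted p = 1.27e-07). Kl, which encodes klotho, a membrane protein linked to ageing, and Sostdc1, a secreted Wnt and BMP antagonist, differed by 3.38 ± 0.37 and 2.91 ± 0.47, and their highest hippocampal values of 11.04 and 11.31 were both in replicate 5. Clic6, an intracellular chloride channel of the same epithelium, overlapped between the regions and differed by 1.32 ± 0.42 (SE; 2.50-fold, adjusted p = 0.00772), and by 1.58 without cortical replicate 5. Markers of ependymal cells, which line the ventricles, were mostly higher too: 6 were higher in hippocampus, 0 were lower and 1 did not pass, of 7 tested, with a median log2 difference of 0.85. Of 9 listed, 7 passed the filter on dim signals, which tilts this count and median toward hippocampus in the same way. Foxj1, the master factor of motile cilia, and Tmem212 were higher in hippocampus by 0.99 and 1.04. All cortical values of Foxj1 were below the filter level of 5.93. The part of adhering plexus in the differences of these genes was not tested.

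Markers of striatal projection neurons were uneven within prefrontal cortex. In this list, 1 was higher in hippocampus, 7 were lower and 8 did not pass, of 16 tested, with a median log2 difference of -0.86 (1 higher and 5 lower without cortical replicate 5), and the median log2 difference without that array was -0.59. Drd1, the dopamine receptor of direct-pathway neurons, had log2 intensities of 6.94 to 7.73 (median 7.20) in hippocampus, against 7.62 to 10.96 (median 8.29) in prefrontal cortex, with the highest value in cortical replicate 5 and 9.72 in replicate 8, and the regions overlapped (log2 difference -1.47 ± 0.41 SE, 2.77-fold, adjusted p = 0.00278; -1.16 ± 0.40 SE, adjusted p = 0.0155 without replicate 5). Rarb, a retinoic acid receptor of striatum, was at 9.68 in that array and 6.90 to 8.18 in the other cortical arrays. All 8 cortical arrays were above all hippocampal arrays for Rarb (log2 difference -1.40 ± 0.30 SE, 2.64-fold, adjusted p = 1.28e-04; -1.12 ± 0.28 SE, adjusted p = 9.33e-04 without replicate 5). Tac1, the precursor of substance P, was at 13.33 in cortical replicate 5 and 9.90 to 11.60 in the others, and its difference of -1.63 ± 0.44 (SE; 3.09-fold, adjusted p = 0.00190) was -1.28 ± 0.42 (SE; adjusted p = 0.0112) without it. Under the 30 other settings run, the Tac1 difference spanned -2.14 to -0.79. Scn4b, a sodium channel beta subunit, was lower in hippocampus, with a log2 difference of -1.95 ± 0.24 (SE; 3.86-fold, adjusted p = 1.38e-09), and of -1.79 without that array. The part of striatal tissue in these and other genes that striatum expresses was not tested.

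Thalamic markers were highest in hippocampal replicate 3, at a mean of 8.78, and replicate 1, at 8.37, with the other hippocampal arrays at 7.48 to 7.90 and the cortical arrays at 7.46 to 8.25; 3 were higher in hippocampus, 2 were lower and 5 did not pass, of 10 tested, with a median log2 difference of 0.23 (a median of 0.42 without cortical replicate 5). Olfactory bulb markers peaked in cortical replicate 2, at 8.44; 0 were higher in hippocampus, 1 was lower and 6 did not pass, of 7 tested, with a median log2 difference of -0.17 (0 higher and 0 lower without cortical replicate 5). For fibroblasts of the meninges, 2 were higher in hippocampus, 0 were lower and 11 did not pass, of 13 tested, with a median log2 difference of -0.02 (a median of 0.11 without cortical replicate 5).

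**Figure D3:**
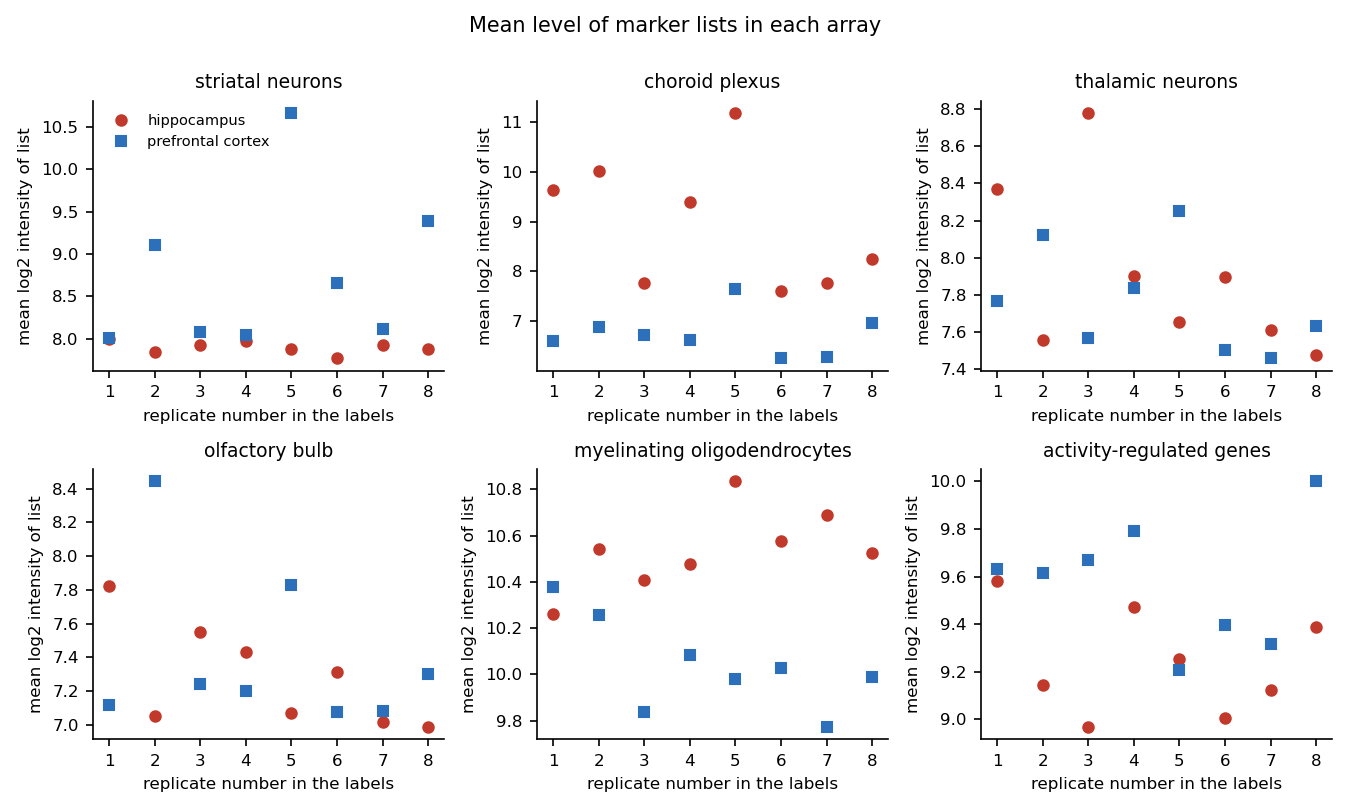
Mean log2 intensity of the tested members of 6 marker lists in each array of vehicle-infused wild-type mice, by the replicate number in the labels; red circles are hippocampus and blue squares prefrontal cortex, and the vertical scale differs between panels. Striatal markers reach 10.67 in cortical replicate 5, choroid plexus markers reach 11.19 in hippocampal replicate 5, and thalamic markers reach 8.78 in hippocampal replicate 3.

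Oligodendrocyte genes were higher in hippocampus by moderate amounts, while endothelial genes had more members lower. Microglial genes were lower in a share close to that of all genes tested, which was 23.8%. Among myelinating oligodendrocyte genes, 12 were higher in hippocampus, 0 were lower and 3 did not pass, of 15 tested, with a median log2 difference of 0.50; none reached 2-fold. Mobp, a structural protein of compact myelin, had a lowest, median and highest log2 intensity of 12.60, 12.87 and 13.39 in hippocampus, against 11.85, 12.16 and 12.40 in prefrontal cortex, without overlap (log2 difference 0.76 ± 0.18 SE, 1.70-fold, adjusted p = 4.64e-04). Mag, the adhesion protein of the inner myelin layer, differed by 0.69 ± 0.15, and Mbp, myelin basic protein, by 0.17 ± 0.06 (adjusted p = 0.0214), with 8 Mbp probe sets giving -0.08 to 0.31. Mbp lost its call under 3 of the 30 other settings run. In 1 of them, without hippocampal replicate 7, the Mbp difference was 0.14 (adjusted p = 0.0590). Sox10, the master factor of the lineage, was higher by 0.94 ± 0.10 (SE; 1.92-fold, adjusted p = 1.30e-11). Among precursors, 5 were higher in hippocampus, 0 were lower and 4 did not pass, of 9 tested, with a median log2 difference of 0.24. Hippocampal replicate 5, which led in choroid plexus genes, also had the highest myelin list level, at 10.83.

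Astrocyte genes were mixed: 7 were higher in hippocampus, 6 were lower and 10 did not pass, of 23 tested, with a median log2 difference of 0.12 (7 higher and 5 lower without cortical replicate 5). Gfap, the intermediate filament of fibrous astrocytes, had a lowest, median and highest log2 intensity of 11.51, 11.83 and 11.86 in hippocampus, against 8.57, 9.55 and 10.07 in prefrontal cortex. The 8 hippocampal arrays were all above the 8 cortical ones (log2 difference 2.31 ± 0.20 SE, 4.95-fold, adjusted p = 1.14e-14). Aqp4, the water channel of astrocyte endfeet, was higher by 0.67 ± 0.12, and Aldh1l1, a folate enzyme used as a general astrocyte marker, was lower, with a log2 difference of -0.44 ± 0.10. Among microglial genes, 0 were higher in hippocampus, 4 were lower and 13 did not pass, of 17 tested, with a median log2 difference of -0.10, with Gpr34, a lysophosphatidylserine receptor, lowest at -0.60 ± 0.16 (SE; 1.51-fold, adjusted p = 0.00191). Among endothelial genes, 1 was higher in hippocampus, 7 were lower and 5 did not pass, of 13 tested, with a median log2 difference of -0.29. The glucose transporter Slc2a1 and the tight-junction protein Cldn5 were lower in hippocampus, with log2 differences of -0.53 ± 0.10 and -0.35 ± 0.09. For pericytes and smooth muscle, 2 were higher in hippocampus, 1 was lower and 7 did not pass, of 10 tested, with a median log2 difference of -0.10 (2 higher and 2 lower without cortical replicate 5).

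The other genes of those 15 had other roles. Cabp7, a calcium-binding protein of the Golgi, had log2 intensities of 12.01 to 12.51 (median 12.23) in hippocampus, against 8.20 to 9.11 (median 8.45) in prefrontal cortex, without overlap (log2 difference 3.66 ± 0.21 SE, 12.6-fold, adjusted p = 3.48e-21). Pkp2, which encodes the desmosomal protein plakophilin-2, a partner of desmoplakin, was higher by 3.03 ± 0.27 (SE; 8.17-fold, adjusted p = 3.38e-14), with its 3 probe sets at 1.49 to 3.34. Shisa6, Npy2r, Htr4 and Doc2b, also among the 15, belong to families described further on.

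The 15 largest differences the other way, again without overlap, included several genes named for muscle or epithelium. Myl4, an atrial myosin light chain, had a lowest, median and highest log2 intensity of 5.69, 5.97 and 6.33 in hippocampus, against 7.61, 9.63 and 10.54 in prefrontal cortex, and cortical replicate 5 gave the lowest cortical value (log2 difference -3.55 ± 0.29 SE, 11.7-fold, adjusted p = 1.21e-15; -3.82 without it). A second Myl4 probe set above the filter gave 0.01, so the 2 probe sets of this gene disagreed. Tnnc1, the calcium-binding troponin of slow muscle, and Krt12, a corneal keratin, were lower in hippocampus, with log2 differences of -2.78 and -2.92 without overlap. Arpp19, a regulator of protein phosphatase 2A, had log2 intensities of 10.18 to 10.64 (median 10.37) in hippocampus, against 12.24 to 13.03 (median 12.80) in prefrontal cortex, without overlap (log2 difference -2.39 ± 0.16 SE, 5.25-fold, adjusted p = 6.25e-19). Exph5, an effector of Rab27, differed by -2.82 (-3.04 without cortical replicate 5), Tmem196, a membrane protein, by -2.63, and Cobl and Fhod3, actin-assembly proteins, by -2.60 and -2.35. The 2 probe sets of Cobl gave -2.60 to -0.12. The Ras exchange factors Rasgef1c and Rasgef1b differed by -2.46 and -2.34. Of the 30 genes named by size, each was in the same direction in the other 3 combinations of genotype and treatment.

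Glutamate receptors of the AMPA class carry fast excitation, and their auxiliary proteins set trafficking and kinetics. In the AMPA and kainate list, 8 were higher in hippocampus, 6 were lower and 8 did not pass, of 22 tested, with a median log2 difference of 0.09 (8 higher and 7 lower without cortical replicate 5). Shisa6, an auxiliary subunit that keeps AMPA receptors at synapses, had a lowest, median and highest log2 intensity of 9.19, 10.01 and 10.44 in hippocampus, against 6.24, 6.56 and 6.97 in prefrontal cortex and the largest difference of this list without overlap (log2 difference 3.47 ± 0.22 SE, 11.1-fold, adjusted p = 1.91e-19). Cnih2, a cornichon homologue that escorts AMPA receptors, had log2 intensities of 12.55 to 12.87 (median 12.68) in hippocampus, against 10.89 to 11.18 (median 11.10) in prefrontal cortex, without overlap (log2 difference 1.62 ± 0.11 SE, 3.07-fold, adjusted p = 1.38e-18). The subunit gene Gria1 had a lowest, median and highest log2 intensity of 12.08, 12.43 and 12.63 in hippocampus, against 10.80, 10.89 and 11.35 in prefrontal cortex, without overlap (log2 difference 1.44 ± 0.12 SE, 2.72-fold, adjusted p = 1.29e-15). Cacng8, the gamma-8 auxiliary subunit known for its hippocampal enrichment, was higher by 1.06 ± 0.10 (its second probe set gave 0.37), while its relative Cacng3 and the subunit gene Gria4 were lower, with log2 differences of -0.97 ± 0.09 and -0.77 ± 0.12. The kainate receptor subunit Grik3 was lower in hippocampus, with a log2 difference of -1.59 ± 0.23 (SE; 3.02-fold, adjusted p = 4.12e-08), with a second probe set at 0.08.

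In the NMDA receptor list, 3 were higher in hippocampus, 0 were lower and 2 did not pass, of 5 tested, with a median log2 difference of 0.33. Grin2b, the subunit of slow NMDA currents, differed by 0.61 ± 0.18, and its 4 probe sets spanned -0.01 to 0.61. Among metabotropic receptors and their Homer scaffolds, 3 were higher in hippocampus, 4 were lower and 2 did not pass, of 9 tested, with a median log2 difference of -0.25. The Homer genes differed in opposite directions. Homer3 had a lowest, median and highest log2 intensity of 8.46, 8.86 and 8.95 in hippocampus, against 6.23, 6.45 and 6.66 in prefrontal cortex, far apart (log2 difference 2.36 ± 0.16 SE, 5.14-fold, adjusted p = 4.08e-18), and Homer1 was lower, with 10.87 to 11.08 (median 10.96) in hippocampus, against 11.43 to 12.25 (median 11.97) in prefrontal cortex, also apart (log2 difference -0.97 ± 0.09 SE, 1.96-fold, adjusted p = 2.85e-14). Grm8, a presynaptic receptor, was lower, with a log2 difference of -1.33 ± 0.25.

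GABA-A receptors differed by subunit in both directions. In this list, 4 were higher in hippocampus, 5 were lower and 1 did not pass, of 10 tested, with a median log2 difference of -0.22. Gabra5, the alpha-5 subunit of extrasynaptic receptors on pyramidal cells, had a lowest, median and highest log2 intensity of 10.08, 10.49 and 11.04 in hippocampus, against 7.87, 8.61 and 9.02 in prefrontal cortex, separate and higher in hippocampus (log2 difference 1.94 ± 0.17 SE, 3.83-fold, adjusted p = 3.35e-14). Gabra2, the alpha-2 subunit, was higher by 1.01 ± 0.17 with overlap. Gabrd, the delta subunit of tonic inhibition, had log2 intensities of 8.11 to 8.52 (median 8.26) in hippocampus, against 9.80 to 10.15 (median 9.93) in prefrontal cortex, separate and lower in hippocampus (log2 difference -1.66 ± 0.11 SE, 3.17-fold, adjusted p = 1.39e-18). Under the 30 other settings run, the Gabrd difference spanned -1.70 to -0.81. Gabra3, the alpha-3 subunit, was lower, with a log2 difference of -1.69 ± 0.20 (SE; 3.22-fold, adjusted p = 1.99e-10). For GABA-B receptors and their auxiliaries, 1 was higher in hippocampus, 1 was lower and 2 did not pass, of 4 tested, with a median log2 difference of -0.03 (a median of 0.02 without cortical replicate 5).

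Among inhibitory neuron genes, 4 were higher in hippocampus, 13 were lower and 13 did not pass, of 30 tested, with a median log2 difference of -0.18 (5 higher and 13 lower without cortical replicate 5). Vip, the peptide of disinhibitory interneurons, had a lowest, median and highest log2 intensity of 8.50, 9.31 and 9.85 in hippocampus, against 9.63, 10.82 and 11.23 in prefrontal cortex and was lower in hippocampus; the overlap came from cortical replicate 5, at 9.63 (log2 difference -1.52 ± 0.20 SE, 2.87-fold, adjusted p = 6.20e-09). Sst, the somatostatin gene of dendrite-targeting interneurons, was at 11.74 to 12.28 (median 12.02) in hippocampus, against 11.85 to 12.11 (median 11.96) in prefrontal cortex, and its difference of 0.04 ± 0.08 did not pass (adjusted p = 0.670). Nos1, neuronal nitric oxide synthase, was higher by 0.89 ± 0.13 (SE; 1.86-fold, adjusted p = 1.15e-07).

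Several transmitter receptor genes had differences among the largest of all. In the serotonin receptor list, 3 were higher in hippocampus, 2 were lower and 3 did not pass, of 8 tested, with a median log2 difference of 0.08. Htr4, a receptor that raises cyclic AMP, was at 7.89 to 8.24 (median 7.98) in hippocampus, against 3.92 to 7.60 (median 4.50) in prefrontal cortex. Cortical replicate 5, at 7.60, came close to the hippocampal arrays, and the other 7 were at 3.92 to 4.79, below the filter level of 5.93. The difference was 3.20 ± 0.33 (SE; 9.20-fold, adjusted p = 5.60e-12), and 3.60 ± 0.28 (SE; adjusted p = 5.15e-16) without that array. Htr1a, an inhibitory receptor of pyramidal cells, was higher by 0.91 ± 0.13 (SE; 1.87-fold, adjusted p = 7.89e-08) without overlap. Chrna7, the alpha-7 nicotinic subunit, was higher by 0.70 ± 0.14; in its list, 4 were higher in hippocampus, 3 were lower and 2 did not pass, of 9 tested, with a median log2 difference of 0.10. For dopamine and adrenergic receptors, 1 was higher in hippocampus, 2 were lower and 2 did not pass, of 5 tested, with a median log2 difference of -0.69 (a median of -0.34 without cortical replicate 5). That list holds Drd1, and its mean was highest in cortical replicates 5, 8 and 2, at 8.38, 8.06 and 7.83, the arrays with the highest striatal marker means; the part of striatal tissue in it was not tested.

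Among neuropeptides, 3 were higher in hippocampus, 9 were lower and 11 did not pass, of 23 tested, with a median log2 difference of -0.03 (a median of -0.01 without cortical replicate 5). That list holds Tac1, and its cortical mean was highest in replicates 5, 2 and 8, at 9.55, 9.30 and 9.19. These arrays had the highest striatal marker means, and the part of striatal tissue in the list was not tested. Crh, corticotropin-releasing hormone, had a lowest, median and highest log2 intensity of 5.45, 5.78 and 6.72 in hippocampus, against 7.63, 8.13 and 8.37 in prefrontal cortex, separate (log2 difference -2.18 ± 0.23 SE, 4.52-fold, adjusted p = 7.29e-12). Adcyap1, the PACAP precursor, was lower, with a log2 difference of -1.81 ± 0.24 (SE; 3.50-fold, adjusted p = 6.20e-09). Nts, the neurotensin precursor, was at 6.85 to 8.45 (median 7.63) in hippocampus, against 4.14 to 9.97 (median 5.20) in prefrontal cortex, with 9.97 in cortical replicate 5 and 4.14 to 5.95 in the other cortical arrays. It was higher in hippocampus by 1.84 ± 0.58 (SE; 3.58-fold, adjusted p = 0.00728), and by 2.44 ± 0.52 (SE; adjusted p = 9.76e-05) without that array. Grp, gastrin-releasing peptide, was higher by 1.23 ± 0.34. Among peptide receptors, 7 were higher in hippocampus, 6 were lower and 10 did not pass, of 23 tested, with a median log2 difference of -0.08 (a median of -0.04 without cortical replicate 5). Npy2r, a presynaptic receptor for neuropeptide Y, had a lowest, median and highest log2 intensity of 8.11, 9.29 and 10.19 in hippocampus, against 5.11, 5.34 and 7.37 in prefrontal cortex, with cortical replicate 5 highest among cortical arrays and still below every hippocampal array (log2 difference 3.70 ± 0.34 SE, adjusted p = 7.98e-14; 3.96 without it). Cckbr, the cholecystokinin B receptor, had log2 intensities of 7.14 to 8.16 (median 7.38) in hippocampus, against 9.41 to 10.25 (median 9.72) in prefrontal cortex and was lower without overlap (log2 difference -2.25 ± 0.21 SE, 4.75-fold, adjusted p = 2.28e-13). Sstr2, a somatostatin receptor, was lower, with a log2 difference of -1.31 ± 0.20.

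Voltage-gated potassium channels set the firing pattern of neurons. In the list of these channels, 9 were higher in hippocampus, 18 were lower and 9 did not pass, of 36 tested, with a median log2 difference of -0.25 (7 higher and 19 lower without cortical replicate 5), against 21.1% higher and 23.8% lower over all genes. Dpp10, an auxiliary subunit of A-type Kv4 channels, had a lowest, median and highest log2 intensity of 7.99, 8.56 and 9.67 in hippocampus, against 10.75, 11.13 and 11.25 in prefrontal cortex, separate (log2 difference -2.33 ± 0.25 SE, 5.04-fold, adjusted p = 8.21e-12). Kcnh5, an ether-a-go-go channel, was at 4.89 to 5.54 (median 5.24) in hippocampus, against 6.70 to 7.73 (median 7.60) in prefrontal cortex, without overlap (log2 difference -2.23 ± 0.19 SE, 4.69-fold, adjusted p = 7.07e-15). The hippocampal values of Kcnh5 lay below the filter level of 5.93. Kcng2, a modifier subunit, was higher by 1.03 ± 0.09. In the list of other potassium channels, 1 was higher in hippocampus, 10 were lower and 8 did not pass, of 19 tested, with a median log2 difference of -0.19, with the sodium-activated channel Kcnt1 lowest at -1.38 ± 0.15 (SE; 2.61-fold, adjusted p = 2.33e-11). Among sodium and calcium channels, 5 were higher in hippocampus, 7 were lower and 9 did not pass, of 21 tested, with a median log2 difference of -0.05 (7 higher and 8 lower with a median of -0.13 without cortical replicate 5). Scn3b, a sodium channel beta subunit, and Cacna1h, a T-type calcium channel, were higher by 1.35 ± 0.14 and 1.51 ± 0.15, both without overlap. Cacnb4, a calcium channel beta subunit, was lower, with a log2 difference of -1.08 ± 0.13.

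In the list of presynaptic release machinery, 7 were higher in hippocampus, 17 were lower and 12 did not pass, of 36 tested, with a median log2 difference of -0.19 (7 higher and 18 lower without cortical replicate 5). The 2 Doc2 genes, calcium sensors of spontaneous release, differed in opposite directions. Doc2b had a lowest, median and highest log2 intensity of 9.92, 10.42 and 10.61 in hippocampus, against 6.16, 7.34 and 9.47 in prefrontal cortex, with cortical replicate 5 highest in cortex (log2 difference 2.90 ± 0.33 SE, 7.44-fold, adjusted p = 8.04e-11; 3.18 without it), and Doc2a was at 7.35 to 7.98 (median 7.64) in hippocampus, against 8.96 to 9.79 (median 9.35) in prefrontal cortex (log2 difference -1.74 ± 0.22 SE, 3.33-fold, adjusted p = 2.79e-09), each without overlap. Rims3, an active-zone protein, and Stx1a, the syntaxin of the SNARE complex, were lower, with log2 differences of -1.90 ± 0.28 and -1.61 ± 0.13, and Syn2, a synaptic vesicle phosphoprotein, was higher by 0.50 ± 0.09.

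At the postsynaptic side, 11 were higher in hippocampus, 9 were lower and 9 did not pass, of 29 tested, with a median log2 difference of 0.08 (10 higher and 10 lower with a median of 0.01 without cortical replicate 5). Camk2a, the alpha subunit of the kinase of long-term potentiation, had a lowest, median and highest log2 intensity of 13.13, 13.40 and 13.55 in hippocampus, against 11.93, 12.54 and 13.04 in prefrontal cortex, separate and higher in hippocampus (log2 difference 0.89 ± 0.11 SE, 1.86-fold, adjusted p = 2.82e-09), although its 6 probe sets spanned 0.03 to 1.37. Shank3, a scaffold of the postsynaptic density, was higher by 0.89 ± 0.09, and Camk1, another calmodulin kinase, was lower, with a log2 difference of -1.27 ± 0.12. Among synapse organizers, 10 were higher in hippocampus, 11 were lower and 9 did not pass, of 30 tested, with a median log2 difference of -0.04 (a median of -0.09 without cortical replicate 5). Lrrtm1 and Lrrtm3 are leucine-rich postsynaptic partners of neurexins, and differed by 0.95 ± 0.10 and -1.40 ± 0.15. Cbln2, a secreted bridge between neurexins and delta receptors, had a lowest, median and highest log2 intensity of 6.54, 6.84 and 7.27 in hippocampus, against 8.26, 9.24 and 9.68 in prefrontal cortex, lower in hippocampus without overlap (log2 difference -2.22 ± 0.20 SE, 4.64-fold, adjusted p = 2.46e-14).

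Guidance and adhesion genes, which steer axons during wiring and remain expressed in the adult, split by family member. Among ephrins and Eph receptors, 8 were higher in hippocampus, 6 were lower and 3 did not pass, of 17 tested, with a median log2 difference of 0.21. The receptor Epha6 had a lowest, median and highest log2 intensity of 8.41, 8.78 and 9.13 in hippocampus, against 6.03, 6.75 and 7.19 in prefrontal cortex and the ligand Efna5 was at 6.88 to 8.14 (median 7.14) in hippocampus, against 8.58 to 9.75 (median 9.52) in prefrontal cortex. Neither overlapped, and they differed in opposite directions, by 2.10 ± 0.20 (SE; 4.29-fold, adjusted p = 1.49e-13) for the receptor and -2.05 ± 0.26 (SE; 4.15-fold, adjusted p = 2.33e-09) for the ligand. Among semaphorins, plexins and neuropilins, 13 were higher in hippocampus, 7 were lower and 6 did not pass, of 26 tested, with a median log2 difference of 0.23 (13 higher and 8 lower without cortical replicate 5). Nrp1, a receptor of class 3 semaphorins, was at 10.62 to 11.16 (median 10.79) in hippocampus, against 8.95 to 9.79 (median 9.36) in prefrontal cortex (log2 difference 1.46 ± 0.13 SE, 2.76-fold, adjusted p = 7.88e-14), and its ligand Sema3a at 6.57 to 7.34 (median 6.98) in hippocampus, against 8.37 to 9.22 (median 9.07) in prefrontal cortex (log2 difference -1.98 ± 0.19 SE, 3.96-fold, adjusted p = 2.14e-13). The regions were separate for both. Sema5a, a semaphorin, was higher by 1.59 ± 0.22 and Plxnd1, a plexin receptor, lower, with a log2 difference of -1.39 ± 0.19.

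Among netrins, slits and their receptors, 11 were higher in hippocampus, 5 were lower and 8 did not pass, of 24 tested, with a median log2 difference of 0.13 (a median of 0.05 without cortical replicate 5). Slit1, a repellent ligand of Robo receptors, had a lowest, median and highest log2 intensity of 10.02, 10.15 and 10.28 in hippocampus, against 8.03, 8.34 and 8.67 in prefrontal cortex, a narrow range in each region (log2 difference 1.81 ± 0.14 SE, 3.51-fold, adjusted p = 5.14e-17). Among cadherins and protocadherins, 6 were higher in hippocampus, 11 were lower and 5 did not pass, of 22 tested, with a median log2 difference of -0.28. Pcdh20 was at 10.36 to 10.90 (median 10.68) in hippocampus, against 7.67 to 8.35 (median 8.01) in prefrontal cortex (log2 difference 2.58 ± 0.25 SE, 5.97-fold, adjusted p = 6.09e-13), and Pcdh11x, an X-linked protocadherin, was lower, with a log2 difference of -1.95 ± 0.25 (SE; 3.85-fold, adjusted p = 3.31e-09), both separate between the regions.

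**Figure D4:**
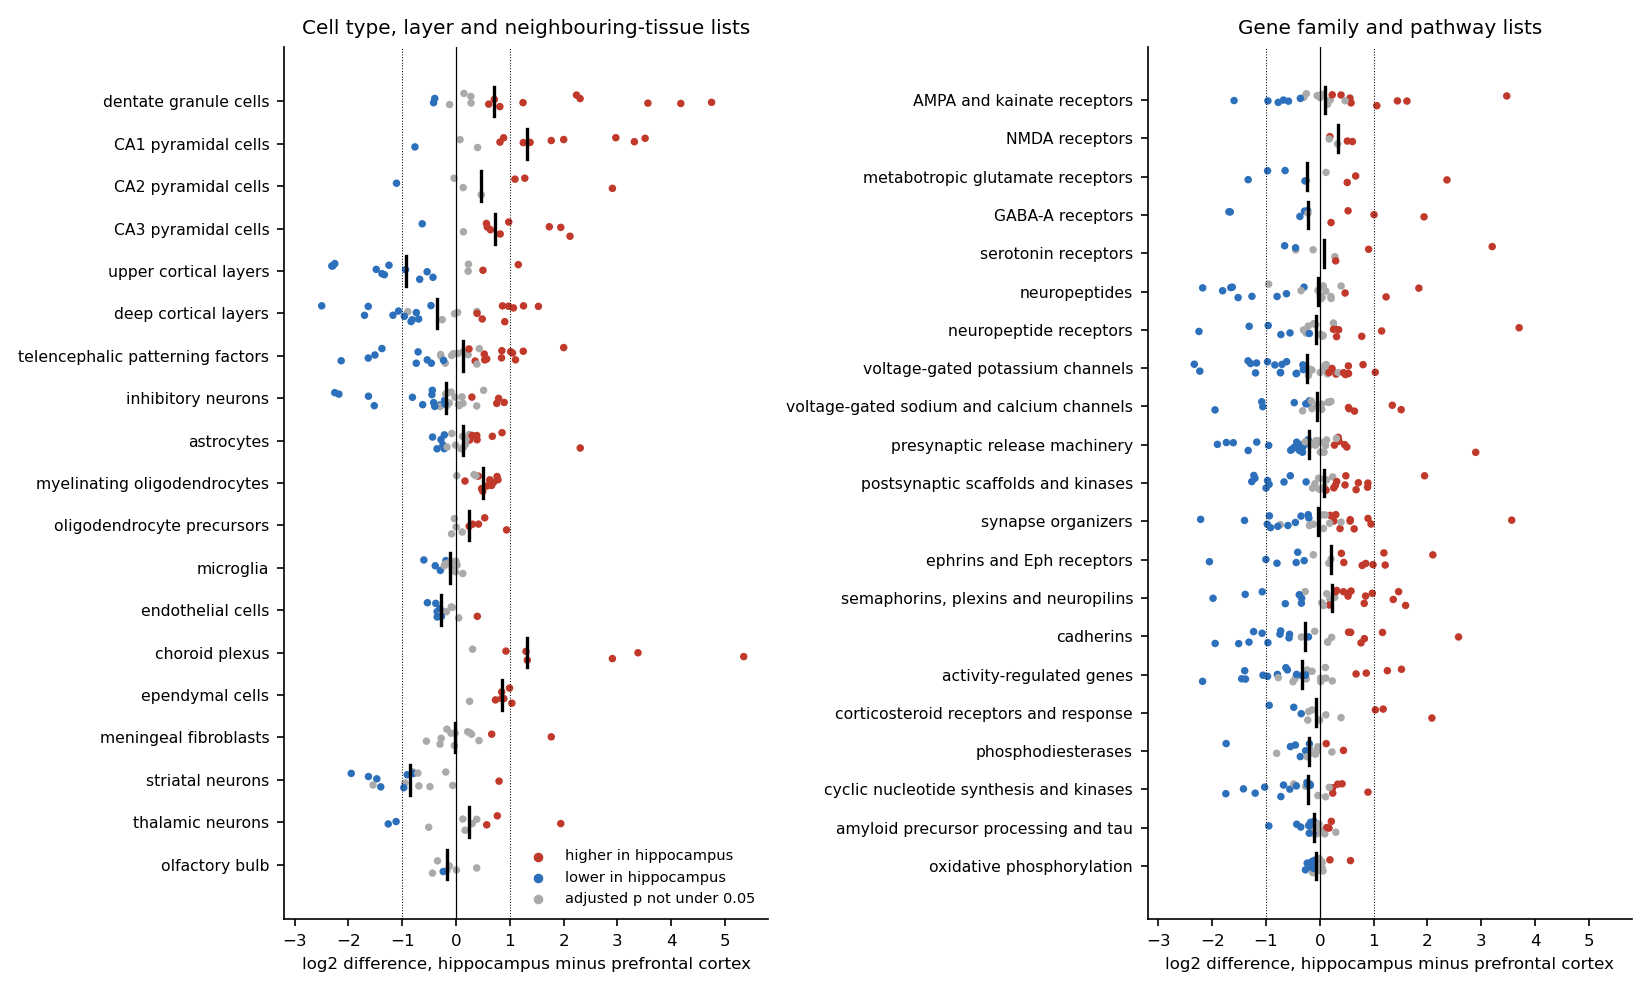
Log2 difference of each tested member of 40 gene lists, hippocampus minus prefrontal cortex, in vehicle-infused wild-type mice; red points passed the threshold and were higher in hippocampus, blue points passed and were lower, grey points did not pass, the black bar is the list's median and dotted lines mark a 2-fold difference. Medians run from 1.32 for choroid plexus and 1.31 for CA1 markers to -0.94 for upper-layer markers.

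Cyclic GMP, the second messenger that the drug of this study acts on, is made by guanylyl cyclases, acts through cyclic GMP kinases and is removed by phosphodiesterases. Pde9a, the target of PF-04447943, had a lowest, median and highest log2 intensity of 7.11, 7.37 and 7.81 in hippocampus, against 7.46, 7.60 and 8.11 in prefrontal cortex. The regions overlapped, cortical replicate 5 was the highest array, and the difference of -0.24 ± 0.12 did not pass (adjusted p = 0.104); it was -0.17 ± 0.12 (SE; adjusted p = 0.256) without that array. Without hippocampal replicate 3 the Pde9a difference was -0.29 (adjusted p = 0.0453), which passed. Among phosphodiesterases, 2 were higher in hippocampus, 6 were lower and 8 did not pass, of 16 tested, with a median log2 difference of -0.19 (2 higher and 4 lower without cortical replicate 5). Pde7b, a cyclic AMP phosphodiesterase, was at 8.70 to 8.91 (median 8.81) in hippocampus, against 10.12 to 11.32 (median 10.55) in prefrontal cortex, with the highest value in cortical replicate 5 (log2 difference -1.74 ± 0.15 SE, 3.34-fold, adjusted p = 5.84e-15; -1.63 ± 0.14 SE, adjusted p = 2.88e-14 without it).

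In the list of cyclic nucleotide synthesis and kinases, 5 were higher in hippocampus, 12 were lower and 6 did not pass, of 23 tested, with a median log2 difference of -0.23 (4 higher and 12 lower without cortical replicate 5). Gucy1a1, the alpha-1 subunit of the guanylyl cyclase that nitric oxide activates, had a lowest, median and highest log2 intensity of 8.84, 9.10 and 9.39 in hippocampus, against 10.66, 10.74 and 11.55 in prefrontal cortex and was lower in hippocampus without overlap (log2 difference -1.75 ± 0.14 SE, 3.36-fold, adjusted p = 1.87e-16). Prkg2, the type II cyclic GMP kinase, was lower, with a log2 difference of -1.42 ± 0.22 (SE; 2.67-fold, adjusted p = 3.32e-07). Pde7b and Gucy1a1 are also genes of striatal neurons.

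Genes of amyloid precursor processing and tau differed little. In that list, 3 were higher in hippocampus, 9 were lower and 11 did not pass, of 23 tested, with a median log2 difference of -0.11 (3 higher and 10 lower without cortical replicate 5), and none reached 2-fold. App, the mouse amyloid precursor gene, was at 13.93 to 14.01 (median 13.98) in hippocampus, against 13.82 to 14.00 (median 13.95) in prefrontal cortex, and Prnp, the prion protein gene, at 13.55 to 13.65 (median 13.60) in hippocampus, against 13.57 to 13.69 (median 13.62) in prefrontal cortex. Both overlapped, and neither passed (log2 differences 0.05 ± 0.03 and -0.02 ± 0.03, adjusted p = 0.162 and 0.686), although App passed with the 3' minus 5' signal as a covariate, at 0.07 (adjusted p = 0.0321). Mapt, which encodes tau, was lower, with a log2 difference of -0.19 ± 0.04 (adjusted p = 2.47e-04), and its 4 probe sets spanned -0.19 to 0.47. Mme, the amyloid-degrading peptidase neprilysin, was lower, with a log2 difference of -0.95 ± 0.25 (SE; 1.93-fold, adjusted p = 0.00144), with overlap, and of -0.75 without cortical replicate 5.

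Activity-regulated genes are transcribed within minutes to hours of synaptic activity through factors such as CREB, which binds cyclic AMP response elements. Of such genes, 4 were higher in hippocampus, 12 were lower and 11 did not pass, of 27 tested, with a median log2 difference of -0.33 (3 higher and 12 lower without cortical replicate 5). To show the elements, the windows from 250 bases before to 50 bases after the start of Fos, Dusp1 and Nr4a3 are printed from RefSeq (GRCm38.p6), since these genes were called in both directions and hold the element's half-site. Capitals mark each TGACG, searched on both strands, so its complement CGTCA appears where the match lies on the other strand. Fos is at chr12:85473640-85473939 on the plus strand, Dusp1 at chr17:26508423-26508722 on the minus strand and Nr4a3 at chr4:48045055-48045354 on the plus strand.
Fos: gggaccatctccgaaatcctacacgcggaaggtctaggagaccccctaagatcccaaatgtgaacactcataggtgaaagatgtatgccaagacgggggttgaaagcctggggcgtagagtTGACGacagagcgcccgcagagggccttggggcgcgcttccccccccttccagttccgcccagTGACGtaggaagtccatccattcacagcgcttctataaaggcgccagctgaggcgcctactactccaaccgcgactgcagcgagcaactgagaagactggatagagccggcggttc
Dusp1: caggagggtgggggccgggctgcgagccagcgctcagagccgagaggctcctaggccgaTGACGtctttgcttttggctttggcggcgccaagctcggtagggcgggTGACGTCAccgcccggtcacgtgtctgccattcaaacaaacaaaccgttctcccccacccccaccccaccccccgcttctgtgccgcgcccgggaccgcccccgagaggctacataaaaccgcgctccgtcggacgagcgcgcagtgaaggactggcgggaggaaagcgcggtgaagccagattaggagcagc
Nr4a3: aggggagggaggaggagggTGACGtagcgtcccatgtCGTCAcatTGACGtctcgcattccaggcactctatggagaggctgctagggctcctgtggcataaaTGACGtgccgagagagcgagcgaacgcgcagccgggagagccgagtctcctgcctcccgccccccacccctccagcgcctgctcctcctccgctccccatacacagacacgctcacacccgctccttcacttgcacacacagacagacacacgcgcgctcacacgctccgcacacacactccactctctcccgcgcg

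The half-site occurred 2 times in the Fos window, at -129 and -66 from the start, 3 times in that of Dusp1, where the matches at -143 and -140 overlap in the palindrome TGACGTCA, and 4 times in that of Nr4a3. It was present in 31.1% of 10432 windows of genes tested, in 25 of 120 windows of genes at least 2-fold higher in hippocampus (20.8%), and in 34 of 161 of genes at least 2-fold lower (21.1%). Among activity-regulated genes tested, 15 of 22 windows held it (68.2%), as did 6 of the 9 windows of those lower in hippocampus (66.7%). These matches describe the letters of the windows.

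Fos, the immediate-early AP-1 subunit, had a lowest, median and highest log2 intensity of 7.93, 8.56 and 9.84 in hippocampus, against 9.53, 10.23 and 11.03 in prefrontal cortex. It was lower in hippocampus with overlap (log2 difference -1.38 ± 0.41 SE, 2.61-fold, adjusted p = 0.00449), and its range within each region exceeded 1 unit. Dusp1, a phosphatase of MAP kinases, was at 8.39 to 9.47 (median 8.77) in hippocampus, against 9.56 to 10.73 (median 10.42) in prefrontal cortex, without overlap (log2 difference -1.40 ± 0.23 SE, 2.63-fold, adjusted p = 8.54e-07). Egr2, a zinc-finger factor, had a lowest, median and highest log2 intensity of 4.57, 5.42 and 6.47 in hippocampus, against 7.08, 7.39 and 8.51 in prefrontal cortex, also apart (log2 difference -2.18 ± 0.39 SE, 4.53-fold, adjusted p = 6.46e-06). Rgs4, which limits Gq signalling, was lower, with a log2 difference of -1.45 ± 0.15 (SE; 2.74-fold, adjusted p = 1.38e-12). Nr4a3, an orphan nuclear receptor, ran the other way at 10.83 to 11.27 (median 11.01) in hippocampus, against 9.15 to 10.03 (median 9.45) in prefrontal cortex, without overlap (log2 difference 1.52 ± 0.23 SE, 2.86-fold, adjusted p = 2.47e-07), with a second probe set at 0.12. Jun, the partner of Fos, was higher by 1.25 ± 0.12 (SE; 2.39-fold, adjusted p = 2.01e-13). Bdnf, a neurotrophin, was higher by 0.67 ± 0.23 (SE; 1.59-fold, adjusted p = 0.0131), and 0.52 ± 0.23 (SE; adjusted p = 0.0533) without cortical replicate 5, where it no longer passed. Bdnf also lost its call at the stricter threshold of 0.01. The list's mean level varied from array to array and was highest in cortical replicate 8.

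Corticosteroid receptors let the hippocampus read circulating stress hormone. In the list of receptors and response genes, 3 were higher in hippocampus, 3 were lower and 6 did not pass, of 12 tested, with a median log2 difference of -0.07 (3 higher and 4 lower without cortical replicate 5). Nr3c2, the high-affinity mineralocorticoid receptor, had a lowest, median and highest log2 intensity of 9.94, 10.46 and 10.55 in hippocampus, against 7.97, 8.24 and 8.69 in prefrontal cortex, separate (log2 difference 2.08 ± 0.19 SE, 4.23-fold, adjusted p = 4.27e-14). Fkbp5, a chaperone induced by corticosteroids that dampens their receptor, and Hsd11b1, the enzyme that regenerates active corticosteroid, were higher by 1.18 ± 0.10 and 1.03 ± 0.16. The Hsd11b1 difference was 0.93 without cortical replicate 5. The 3 lower members were Klf9, Tsc22d3 and Cdkn1a, so the list went both ways. The lowest log2 difference of any member was -0.94. Among neurotrophins and growth factors, 5 were higher in hippocampus, 6 were lower and 11 did not pass, of 22 tested, with a median log2 difference of -0.03 (4 higher and 6 lower with a median of -0.04 without cortical replicate 5). Fgfr1, a fibroblast growth factor receptor, was higher by 1.39 ± 0.11 (SE; 2.62-fold, adjusted p = 3.40e-16), and Igfbp6, a binding protein of insulin-like growth factors, was lower, with a log2 difference of -2.11 ± 0.22 (SE; 4.32-fold, adjusted p = 1.09e-11). In retinoic acid signalling, 5 were higher in hippocampus, 3 were lower and 6 did not pass, of 14 tested, with a median log2 difference of 0.06 (5 higher and 2 lower without cortical replicate 5), and in the Wnt list, 7 were higher in hippocampus, 7 were lower and 10 did not pass, of 24 tested, with a median log2 difference of -0.0013 (7 higher and 8 lower with a median of -0.02 without cortical replicate 5). Dkkl1, a dickkopf-like secreted protein, was lower, with a log2 difference of -1.67 ± 0.22 (SE; 3.19-fold, adjusted p = 8.93e-09).

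Housekeeping genes differed by small amounts. Among cytosolic ribosomal proteins, 0 were higher in hippocampus, 3 were lower and 12 did not pass, of 15 tested, with a median log2 difference of -0.02 (0 higher and 2 lower with a median of -0.0045 without cortical replicate 5), with Rpl8 lower, with a log2 difference of -0.16 ± 0.03. Among oxidative phosphorylation subunits, 2 were higher in hippocampus, 9 were lower and 17 did not pass, of 28 tested, with a median log2 difference of -0.07 (2 higher and 8 lower without cortical replicate 5). Ndufa10, a complex I subunit, was higher in hippocampus, with a lowest, median and highest log2 intensity of 11.90, 12.01 and 12.11 in hippocampus, against 11.33, 11.44 and 11.54 in prefrontal cortex, and did not overlap (log2 difference 0.57 ± 0.04 SE, 1.48-fold, adjusted p = 1.67e-17); its second probe set gave 0.25.

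The same contrast could be taken in 3 other sets of mice. All 387 genes called at 2-fold in vehicle-infused wild-type mice had the same direction in vehicle-infused Tg2576 mice, in PF-04447943-infused wild-type mice and in PF-04447943-infused Tg2576 mice. Of them, 383, 381 and 378 passed the threshold in that direction, where 54.9%, 43.1% and 41.4% of all genes passed in either direction. At least 2-fold differences in the same direction were called for 325, 353 and 280 of the 387, which is 84.0%, 91.2% and 72.4% of the wild-type vehicle genes, and 83.1%, 80.2% and 93.3% of the 391, 440 and 300 genes called at 2-fold in each of the other sets. The median ratio of the difference there to that in vehicle-infused wild-type mice was 0.974, 1.04 and 0.879 over the 387 genes. Across all genes tested, Pearson r of the differences was 0.959, 0.952 and 0.965, as a description, since genes are not independent.

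In the order Tg2576 with vehicle, wild type with PF-04447943 and Tg2576 with PF-04447943, the log2 difference was 4.27, 5.16 and 3.81 for Dsp, 1.91, 2.01 and 1.57 for Prox1 and 2.44, 2.58 and 2.19 for Gfap. For Cux2 it was -2.40, -2.35 and -1.83 and for Gabrd -1.89, -1.72 and -1.64. For Egr2 it was -1.34, -1.49 and -0.96, against -2.18 in vehicle-infused wild-type mice. Tac1 was at -2.09, -1.22 and -2.19. Pde9a, which did not pass in vehicle-infused wild-type mice, was at -0.22, -0.08 and -0.06.

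**Figure D5:**
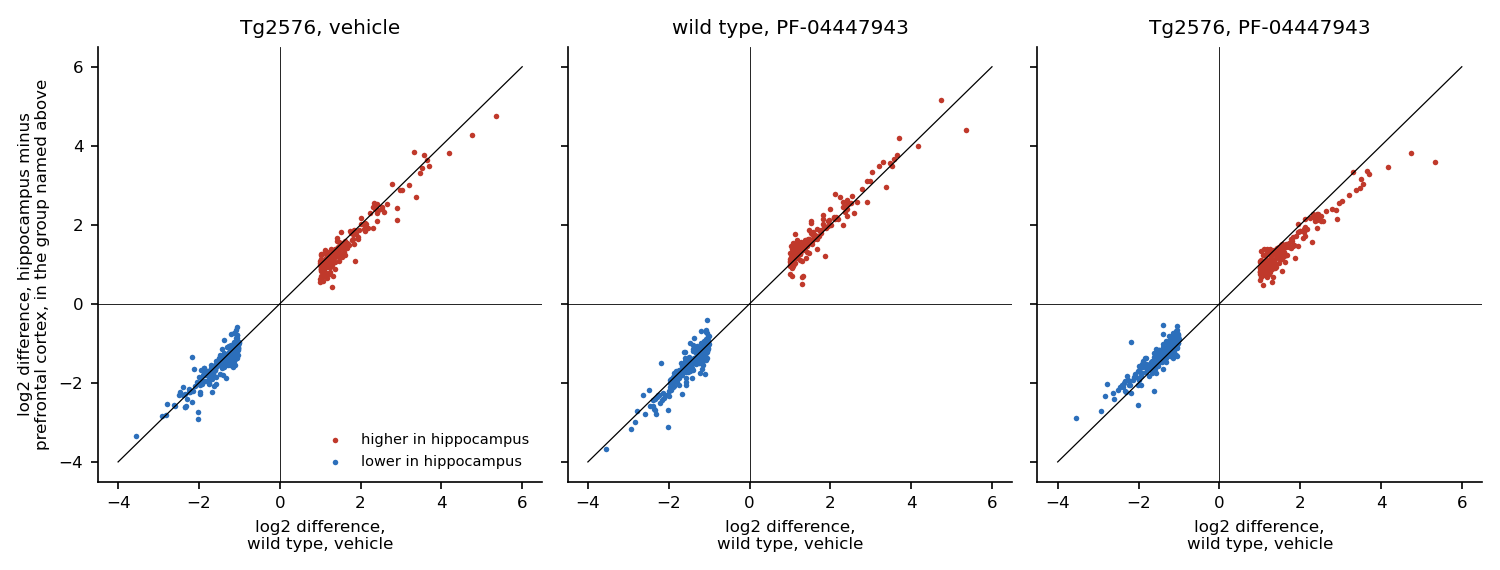
Log2 difference, hippocampus minus prefrontal cortex, of the 387 genes called at 2-fold in vehicle-infused wild-type mice (horizontal axis), against the same difference in 3 other sets of mice (vertical axis, 1 panel each, 8 arrays per region); the diagonal marks equal differences. Every point keeps its sign in the 3 panels.

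Whether the regional difference itself depended on genotype or drug was tested as a difference between differences. For vehicle-infused wild-type mice minus vehicle-infused Tg2576 mice, limma called 0 of 12950 genes, and 441 had an unadjusted p under 0.05, where 647.5 would be expected by chance. For vehicle minus PF-04447943 in wild-type mice limma called 0, with 623 at an unadjusted p under 0.05, and 9 when arrays were weighted by quality. Both tests share the vehicle-infused wild-type arrays. The smallest p in the genotype test was that of Mcu, the pore of the mitochondrial calcium uniporter, whose regional difference was 0.43 in wild-type and 0.16 in Tg2576 mice, 0.27 ± 0.07 (SE) apart (limma, adjusted p = 0.976). In the drug test it was that of Foxf1, a forkhead factor, at 0.23 with vehicle and -0.13 with PF-04447943, 0.35 ± 0.08 (SE) apart (limma, adjusted p = 0.686).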

How the data were processed

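Gene expression was measured with Affymetrix mouse 430 2.0 arrays, 1 per sample. The deposited values are probe set intensities on a linear scale, made from the scanned arrays with RMA (background correction, quantile normalization and summary over probes), per the submitters' processing notes; they ran from 5.87 to 34088.93 and were converted to log2. RMA forces arrays to 1 distribution before summary, so a shift common to all genes cannot be seen, and depth has no meaning here: the number of arrays limits the precision.

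Of 45101 probe sets, 34945 carried 1 gene symbol in the platform annotation, 932 several and 9160 none, with 64 control probe sets beside them. For a gene with several probe sets, the one brightest on average across all arrays stood for it, giving 18193 genes, and those whose mean was under the 40th percentile (log2 5.93) were left out. Regional differences were fitted with limma 3.58.1 (R 4.3.3) as 1 factor of 8 groups over all 64 arrays, which share 1 estimate of spread, with Benjamini-Hochberg adjustment over 12950 genes. Array measures were compared with exact permutation tests (R 4.3.3, 12870 regroupings). The code was tested on simulated data.

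Named genes were taken from the 15 largest differences in each direction among genes past the threshold whose regions did not overlap, from up to 4 members of each gene list in each direction and the 2 closest to 0, from Pde9a, App, Prnp and Mapt, and from the 5 smallest p-values of each test between sets of mice. The members and lists were chosen with earlier results of these data known. Members named by direction only, without a value of their own, are not among the named genes counted below. Replicates are separate mice per the labels' design text. Alternatives changed the normalization, filter, probe set rule, model, array weights and arrays left out.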

Additional observations from a re-analysis of the deposited data

Results flagged for a closer look

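For each named gene, list mean and array measure, the highest and lowest of the 8 arrays of a region were set against the rest with Dixon's test at 95%. Of 388 groups of 8 arrays, 49 had an array set apart, where chance would give 19.4, and 39 of the 49 were in cortical replicate 5. Values are log2 intensities.

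Cortical replicate 5 was the highest cortical array for Cacna1h at 9.32, Clic6 at 8.86, Foxp2 at 9.96, Gria1 at 11.35, Gucy1a1 at 11.55, Htr4 at 7.60, Kl at 5.96 and Nos1 at 9.43. The same held for Npy2r at 7.37, Nts at 9.97, Pde7b at 11.32, Pde9a at 8.11, Prkcd at 7.98, Rarb at 9.68 and Zbtb20 at 10.40. It was the lowest cortical array for Cacnb4 at 11.11, Cux2 at 9.14, Dpp10 at 10.75, Efna5 at 8.58, Exph5 at 7.93, Fhod3 at 8.76, Kcnh5 at 6.70 and Krt12 at 8.80. It was also lowest for Lamp5 at 11.32, Mef2c at 12.23, Neurod2 at 8.86, Rasgef1b at 8.86, Rorb at 8.87, Stx1a at 11.67, Tbr1 at 8.68 and Vip at 9.63. Among list means, it was highest for CA1 pyramidal cells (8.85), serotonin receptors (8.03) and phosphodiesterases (9.65), and lowest for telencephalic patterning factors (9.43), metabotropic glutamate receptors (9.09), other potassium channels (8.59), synapse organizers (9.17) and postsynaptic scaffolds and kinases (10.90). The markers of striatal neurons averaged 10.67 in this array, and their part in these values was not tested.

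In hippocampus, replicate 1 was the lowest array for Aqp4 at 10.16, Gpr161 at 9.20 and Mcu at 9.15, and the highest for the mean of dopamine and adrenergic receptors (7.31) and of neuropeptides (9.14). Thalamic markers averaged 8.37 in that array. Hippocampal replicate 5, which had the highest choroid plexus and myelin list means, was highest for Foxj1 at 7.48 and Sox10 at 10.30, and its interquartile range of log2 intensity was set apart at 3.69. Tac1 was lowest in hippocampal replicate 6, at 8.58, and Prkg2 was highest in cortical replicate 3, at 8.53.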

How the results depend on the processing

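Results were recomputed under 30 other settings, 16 of which left out 1 array. Of 140 named genes, 135 passed the threshold, and 132 of these kept their call and direction under every setting run. The exceptions were Bdnf, Mbp and Mapt. Bdnf lost its call under 2 settings and Mbp under 3, and for each 1 of these was the stricter threshold of 0.01. The size of a difference could move where the call did not. Across settings it spanned -1.70 to -0.81 for Gabrd, -2.17 to -1.18 for Efna5, 1.81 to 3.07 for Gpr161 and 0.59 to 1.11 for Gabra2. Mapt, at -0.19, was 0.072 with the mean of a gene's probe sets. Prnp, at -0.02 and not past the threshold, was 0.0019 with that mean and 0.016 after quantile normalization. Testing all probe sets separately gave 4516 higher and 5476 lower in hippocampus, 308 and 358 of them by at least 2-fold, over more features than genes. Weighting arrays by quality gave 9 genes for the difference between vehicle and PF-04447943, against 0 otherwise; the cause was not tested. Leaving out 1 array gave 2516 to 2716 genes higher and 2760 to 3213 lower, 165 to 189 and 201 to 238 at 2-fold, and 0 to 0 genes for both differences between sets of mice. With the replicate number as a replicate block, 2666 genes were higher and 3014 lower, 179 and 208 by 2-fold, both differences between sets of mice stayed at 0, and no named gene changed its call. The labels do not say that numbers pair the regions. Same-numbered arrays correlated by 0.058 to 0.531 after group means were removed, and 6 of 8 correlated best with their own number. As a hint from the data, 11 probe sets with 2 separate levels matched all 8 vehicle-infused wild-type hippocampal arrays to the cortical array of the same number with 0 mismatches. They matched 26 of 32 over the 4 sets of mice, but 2 of 8 in PF-04447943-infused Tg2576 mice, where the numbers would pair other arrays. With the matched arrays as a block, 2750 genes were higher and 3195 lower, 179 and 208 by 2-fold, and no named gene changed its call. Depth has no meaning for arrays, and dim genes are limited by background.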
